A study of Mus musculus with 2 samples.

Results

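The 4 secreted ligands and 5 tyrosine kinase receptors of the VEGF and angiopoietin families were followed in single cells of the mouse embryo: the ligands Vegfa, Vegfc, Angpt1 and Angpt2, and the receptors Flt1, Kdr, Flt4, Tek and Tie1. They were chosen by gene symbol, and all 9 were found among the 31053 genes of the deposited count matrices. The samples were C57BL/6 embryos of embryonic stages E11.5 and E10.5 (days after conception), with no mutant or treated group and no separate library for each tissue. At each stage the dorsal aorta with the tissue around it and the fetal liver were dissociated with enzymes and went into 1 droplet library, so that a cell's origin in aorta or liver was read here only from its marker genes. How many embryos were pooled was not given in the labels. With 1 library per stage there is no replicate and no test between stages, and every 95% interval below covers counting error only.

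VEGF-A drives the growth of vessels mainly through the receptor KDR, while FLT1 binds the same ligand tightly with a weak kinase and so holds it away from KDR. VEGF-C acts on FLT4, a receptor of lymphatic and embryonic venous endothelium, and in its fully processed form on KDR as well. Angiopoietin 1 activates TEK (also called TIE2) and steadies vessels, angiopoietin 2 opposes or mimics it according to context, and TIE1 is a partner of TEK with no ligand of its own firmly known. In the embryo these receptors are also known from the haemogenic endothelium of the aorta and from early blood progenitors.

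The 5 receptors all had their highest levels in the endothelial cell classes described later, so the sequences around their transcription starts are shown. RefSeq's promoter table for GRCm38.p6 held windows of 300 bases, from 250 before to 50 after a gene's start, for 7 of the 9 genes, and none for Angpt1 and Angpt2. Each window is printed 5′ to 3′ on the gene's own strand, and capitals mark GGAA or, for a match on the other strand, TTCC. GGAA is the core bound by ETS factors, a family known to act on endothelial genes, and no other motif was searched. The windows lie at chr5:147725962-147726261 on the minus strand for Flt1, chr5:75978406-75978705 on the minus strand for Kdr, chr11:49609429-49609728 on the plus strand for Flt4, chr4:94739039-94739338 on the plus strand for Tek and chr4:118489800-118490099 on the minus strand for Tie1.
Flt1: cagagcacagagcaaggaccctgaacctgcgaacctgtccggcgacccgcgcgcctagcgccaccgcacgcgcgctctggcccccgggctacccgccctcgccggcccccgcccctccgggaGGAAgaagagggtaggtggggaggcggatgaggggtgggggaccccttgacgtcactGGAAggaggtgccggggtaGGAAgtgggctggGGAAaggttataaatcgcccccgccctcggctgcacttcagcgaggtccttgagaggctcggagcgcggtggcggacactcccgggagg
Kdr: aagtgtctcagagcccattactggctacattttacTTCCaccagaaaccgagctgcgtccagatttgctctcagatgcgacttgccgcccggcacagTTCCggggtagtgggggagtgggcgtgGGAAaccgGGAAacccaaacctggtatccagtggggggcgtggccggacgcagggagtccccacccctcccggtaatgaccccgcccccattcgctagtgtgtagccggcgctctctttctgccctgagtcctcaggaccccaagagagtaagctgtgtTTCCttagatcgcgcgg
Flt4: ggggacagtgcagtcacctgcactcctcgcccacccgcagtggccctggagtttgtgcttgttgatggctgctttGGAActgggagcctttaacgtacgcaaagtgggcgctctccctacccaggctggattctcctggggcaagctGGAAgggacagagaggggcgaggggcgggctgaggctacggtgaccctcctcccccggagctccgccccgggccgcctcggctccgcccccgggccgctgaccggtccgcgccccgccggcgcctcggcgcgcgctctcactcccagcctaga
Tek: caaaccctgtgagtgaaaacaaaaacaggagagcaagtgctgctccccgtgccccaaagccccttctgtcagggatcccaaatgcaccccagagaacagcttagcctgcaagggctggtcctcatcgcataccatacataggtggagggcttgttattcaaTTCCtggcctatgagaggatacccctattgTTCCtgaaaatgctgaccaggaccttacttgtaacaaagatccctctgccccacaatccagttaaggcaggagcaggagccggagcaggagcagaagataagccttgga
Tie1: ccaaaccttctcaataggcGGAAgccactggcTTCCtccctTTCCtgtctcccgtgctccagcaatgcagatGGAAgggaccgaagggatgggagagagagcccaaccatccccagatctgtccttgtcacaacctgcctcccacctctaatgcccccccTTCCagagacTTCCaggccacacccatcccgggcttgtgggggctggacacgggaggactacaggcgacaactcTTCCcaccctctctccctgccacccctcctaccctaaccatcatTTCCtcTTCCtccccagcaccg
The Tie1 window held 9 matches, the Kdr window 5, the Flt1 window 4, and the Flt4 and Tek windows 2 each. Of all 32851 promoter windows of this length, 96.0% held at least 1 match and the median was 3. Windows with at least as many matches as Tie1 made up 1.59% of them, against 28.6% for Kdr, 46.3% for Flt1 and 84.6% for Flt4 and Tek. The windows follow RefSeq's starts, and for Flt4 and Tie1 that start lies inside the GENCODE gene positions given below. A match is a description of letters, and binding was not measured here.

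After filters on depth, gene number and mitochondrial RNA, and removal of likely doublets, 8976 cells remained at E11.5 and 8009 at E10.5, with medians of 13134.5 and 15470 unique molecules (UMIs) per cell. Endothelial-like clusters held 2.86% of the E11.5 cells (257) and 4.93% of the E10.5 cells (395), with medians of 16073 and 12178 UMIs. Cell classes were named from marker genes that included none of the 9 genes, and the 9 genes were kept out of the clustering. The libraries shared 37 cell barcodes in all, of which 21 were among the analysed cells. At least 14 of 15 endothelial markers reached 20 CPM (the gene's UMIs scaled to a total of 1000000) in the arterial, sinusoidal and other endothelial-like cells at each stage. Their summed level was 9841 CPM at E11.5 and 9053 CPM at E10.5 in arterial endothelial-like cells. One more group, called shallow here, held 65 and 125 cells with medians of only 2361 and 1880 UMIs. In the shallow group 13 of 15 endothelial markers reached 20 CPM at each stage, but so did 8 and 5 of 10 erythroid markers, and globins made up 9.49% and 4.64% of its UMIs. Its part in the pooled endothelial values is given by leaving it out in the closing section.

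The arterial endothelial-like class was held by different clusters at the stages, which bears on every comparison of it below. Of 57 arterial endothelial-like cells at E11.5, 41 were in cluster V6, and of 152 at E10.5, 121 were in cluster V1, with cluster V5 holding 11 at E11.5 and 31 at E10.5. The other endothelial-like class was likewise mostly cluster V2 at E11.5 (98 of 104 cells) and cluster V3 at E10.5 (88 of 93 cells). The sinusoidal endothelial-like cells, 31 at E11.5 and 25 at E10.5, were the single cluster V4 at both stages.

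Levels were ordered over the classes of at least 50 cells and the sinusoidal endothelial-like cells, 23 classes at E11.5 and 20 at E10.5. In this order 6 of the 9 genes had their highest level in an endothelial-like class at each stage, namely the 5 receptors and Vegfc. The share of all genes with an endothelial-like highest class was not computed, so this count describes the 9 genes only. Vegfa was highest in hepatic stellate-like cells, Angpt2 in smooth muscle or mural-like cells, and Angpt1 in blood or mesenchymal classes that differed between the stages. The pattern is shown in the heat map of levels by class.

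**Figure D1:**
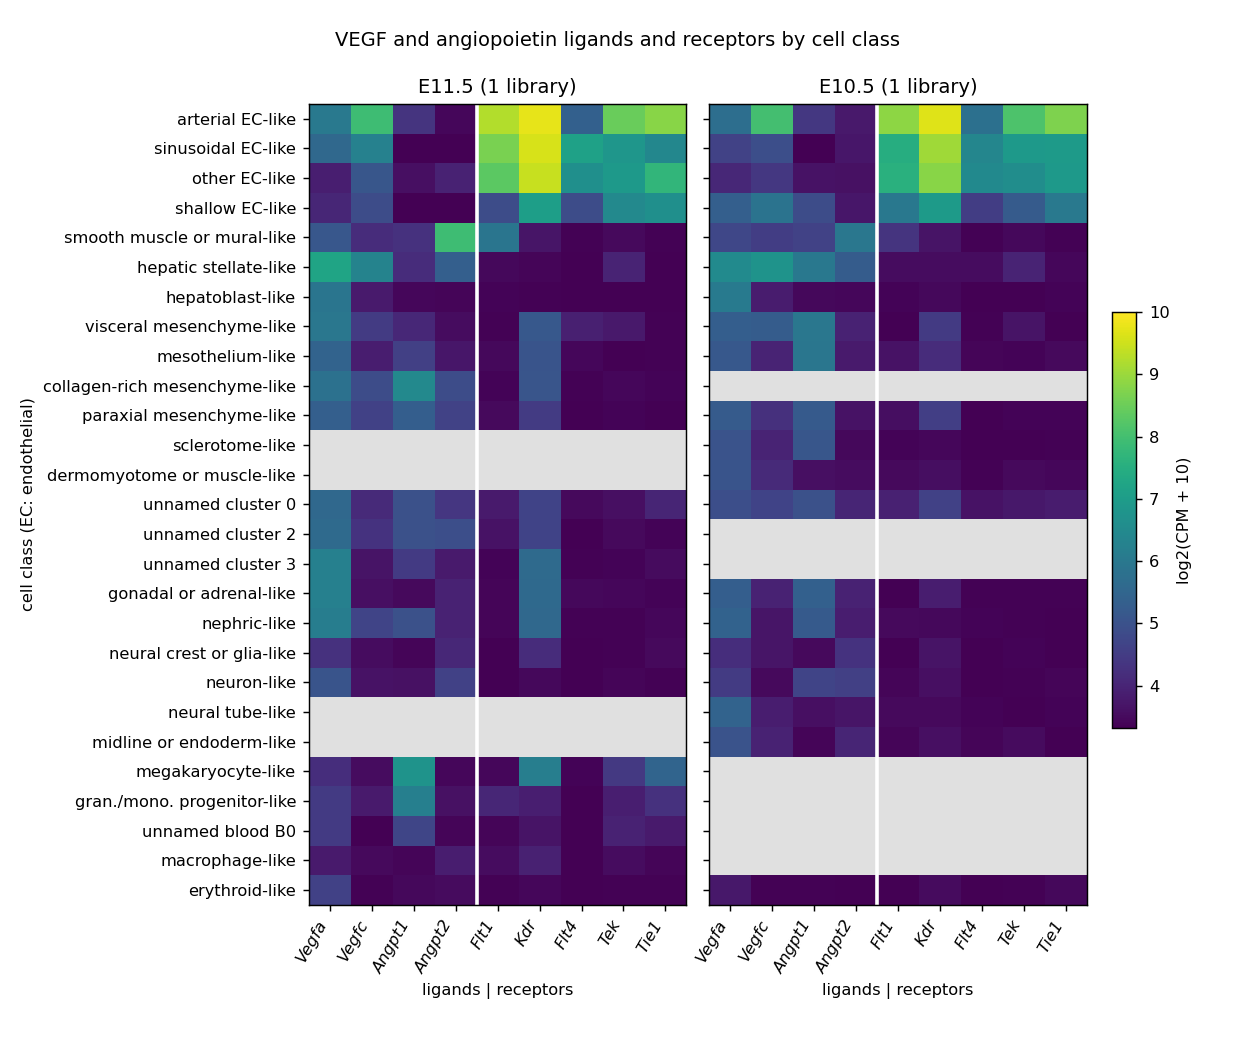
Level of each gene as log2(CPM + 10) (colour) in each cell class (rows; EC stands for endothelial) at E11.5 (left panel) and E10.5 (right panel), 1 library each, with ligands left of the white line and receptors right of it; grey rows are classes under 50 cells, other than sinusoidal EC-like, in that library. Each receptor is brightest in an EC-like row, whereas Vegfa, Angpt1 and Angpt2 are brightest in other rows. In the shallow EC-like row Flt4 is dim at both stages and Flt1 at E11.5.

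Vegfa (chr17:46016993-46032369, minus strand) encodes the main VEGF, which hypoxia is known to induce. In hepatic stellate-like cells, the perivascular mesenchyme of the liver, it stood at 140.2 CPM at E11.5 (95% interval 126 to 155, 191 cells) and 81.8 CPM at E10.5 (66.3 to 99.7, 98 cells). The E11.5 interval lay above that of every other class at its stage, whereas at E10.5 it overlapped that of hepatoblast-like cells, liver epithelial precursors with 57.5 CPM (48.7 to 67.4). Hepatoblast-like cells had 50.7 CPM at E11.5 (46.1 to 55.7).

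Below the stellate-like cells Vegfa was spread over many classes. Gonadal or adrenal-like cells had 65.0 CPM at E11.5 and 30.2 CPM at E10.5, and nephric-like cells had 60.6 and 32.6 CPM. Arterial endothelial-like cells, which carry the receptors, had 54.4 CPM at E11.5 (42.0 to 69.4) and 43.7 CPM at E10.5 (36.2 to 52.3). The class named other endothelial-like had only 4.67 and 6.73 CPM. Sinusoidal endothelial-like cells had 37.7 CPM at E11.5 (26.2 to 52.4), an interval that overlapped the arterial one. At E10.5 the sinusoidal cells had 14.9 CPM, with an interval below the arterial one. Shallow endothelial-like cells had 6.51 CPM at E11.5, on 1 UMI. Their level at E10.5 was 30.9 CPM (18.6 to 48.3), which overlapped the arterial interval. Among the classes with values at both stages, neural crest or glia-like cells were low, with 9.41 and 8.47 CPM. The 3′ counts cannot separate the splice forms of Vegfa, of which the annotation holds 13 transcripts, 8 of them coding.

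Vegfc (chr8:54077606-54187096, plus strand) encodes the ligand of FLT4. Arterial endothelial-like cells held 235 CPM at E11.5 (209 to 265) and 245 CPM at E10.5 (226 to 264), intervals above those of every other class at their stage. Hepatic stellate-like cells came next with 69.0 CPM at E11.5 (59.4 to 79.6) and 97.8 CPM at E10.5 (80.8 to 117). Sinusoidal endothelial-like cells had 66.7 CPM at E11.5 (51.2 to 85.5), an interval that overlapped that of the stellate-like cells, and 20.2 CPM at E10.5 (12.2 to 31.5). Vegfc was therefore a ligand whose highest level was in the endothelium itself, with the liver mesenchyme second. Endothelial-like cells still held a minority of its molecules, 28.6% of all Vegfc UMIs at E11.5 and 40.4% at E10.5.

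Angpt1 (chr15:42424723-42676977, minus strand) encodes the activating ligand of TEK. At E11.5 its highest level was in megakaryocyte-like cells, the platelet lineage, with 97.3 CPM (85.2 to 111, 116 cells). Collagen-rich mesenchyme-like cells followed with 77.8 CPM (73.5 to 82.3, 1266 cells) and granulocyte or monocyte progenitor-like cells with 63.3 CPM (50.2 to 78.8, 53 cells), and these intervals overlapped each other but not that of the megakaryocyte-like cells. Within the collagen-rich mesenchyme, cluster 5 had 135 CPM (127 to 143, 793 cells) and cluster 12 had 10.3 CPM (8.10 to 12.9, 473 cells). These 3 classes had at most 12 cells at E10.5, so their E10.5 levels were not compared.

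At E10.5 the order for Angpt1 was different, and it held none of the leading E11.5 classes named above, which had too few cells there. Haemogenic-like cells, also too few to be ordered, had a higher level than any class ordered, given below with the blood-lineage cells. Hepatic stellate-like cells had 53.9 CPM (41.5 to 68.9), visceral mesenchyme-like cells, the mesenchyme of inner organs, 52.8 CPM (48.2 to 57.6), and mesothelium-like cells, the lining of the body cavity, 51.7 CPM (46.5 to 57.2). These 3 intervals overlapped one another and lay above those of the other classes ordered. At E11.5 the same classes had 8.16, 6.64 and 14.0 CPM. Arterial endothelial-like cells had 10.1 and 11 CPM, and no Angpt1 UMI was counted in the sinusoidal endothelial-like cells of either stage, which allows up to 3.23 and 3.19 CPM (3 counts).

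Angpt2 (chr8:18690263-18741562, minus strand) encodes the context-dependent ligand of TEK. Smooth muscle or mural-like cells, called mural-like for short, had 234 CPM at E11.5 (220 to 249, 276 cells) and 52.8 CPM at E10.5 (48.1 to 57.7, 572 cells). Whether these cells lay on vessels or in other smooth muscle was not measured. Each Angpt2 interval of the mural-like cells lay above those of all other classes at its stage. Hepatic stellate-like cells came second with 30.4 and 28.7 CPM. The mural-like cells held 48.2% of all Angpt2 UMIs at E11.5 and 51.1% at E10.5. Arterial endothelial-like cells had 0.838 CPM and 3.67 CPM, so that Angpt2 was low where Tek and Tie1 were highest. Angpt1 and Angpt2 each overlap a gene on the opposite strand, Gm17473 and Mcph1. Mcph1 had 14.0 and 13.3 CPM in the mural-like cells, and Gm17473 had at most 2.11 CPM in the classes examined.

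**Figure D2:**
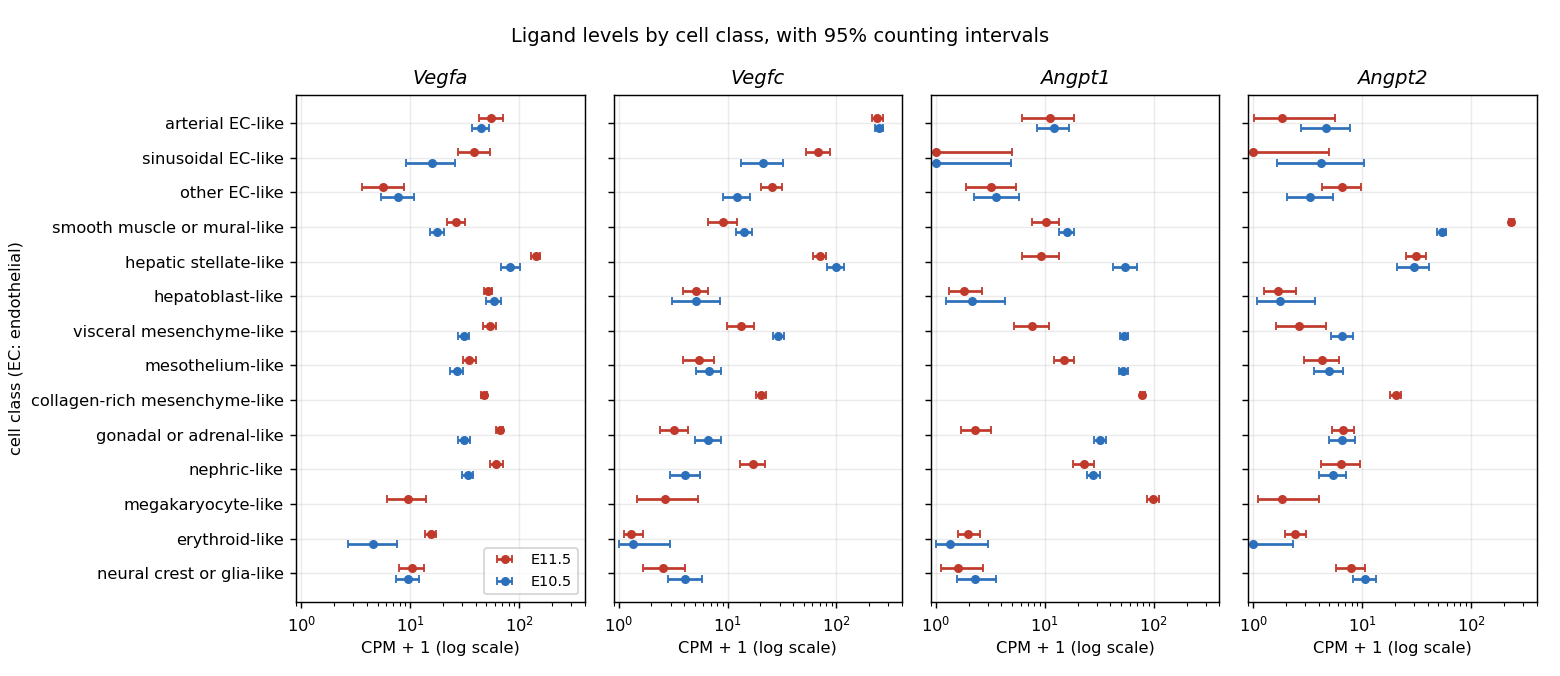
Level of each ligand (one panel each) as CPM + 1 on a log axis in 14 cell classes, with E11.5 above E10.5 in each class, 1 library per stage, and bars for 95% counting intervals. Vegfa and Vegfc lie high in hepatic stellate-like cells at both stages, Vegfc also in arterial endothelial-like cells, and Angpt2 in smooth muscle or mural-like cells.

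Shares of cells with at least 1 UMI gave the same leading classes for the ligands. With every cell thinned to 5000 UMIs and shallower cells left out, Angpt2 was seen in 56.8% of mural-like cells at E11.5 and 20% at E10.5 (84.4% and 39% before thinning). Thinning left out 5 of 276 mural-like cells at E11.5 and 16 of 572 at E10.5. Vegfa was seen in 44.8% and 34.7% of thinned stellate-like cells (72.8% and 57.1% before). Angpt1 was seen in 33.8% of thinned megakaryocyte-like cells at E11.5 (52.6% before), with 36 of 116 cells left out. Free RNA in droplets can also give such UMIs. Thinned erythroid-like cells, a class with medians of 24783 and 31200 UMIs per cell, held Angpt2 in 0.361% and Angpt1 in 0.481% of cells at E11.5, but Vegfa in 5.65% at E11.5 and 2.27% at E10.5. Neural crest or glia-like cells, with medians of 21923 and 21130 UMIs, held Angpt2 in 4.13% and 4.17% and Vegfa in 3.21% and 4.55%.

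Kdr (chr5:75932827-75978458, minus strand), the main signalling receptor for VEGF-A, had the highest counts of the 5 receptors in arterial endothelial-like cells. Levels of different genes are counts of 3′ ends and are not corrected for how well each end is captured. Kdr stood at 848 CPM at E11.5 (796 to 902) and 805 CPM at E10.5 (772 to 839) in arterial endothelial-like cells. Sinusoidal endothelial-like cells had 759.7 CPM at E11.5 (705 to 818) and 517 CPM at E10.5 (472 to 565), and other endothelial-like cells had 689 CPM (661 to 719) and 437 CPM (417 to 459). At E11.5 neighbouring intervals in this order overlapped, and at E10.5 all 3 were separate.

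Flt1 (chr5:147561604-147726011, minus strand), the receptor that binds VEGF-A tightly and signals weakly, had the same leading class. Arterial endothelial-like cells had 596 CPM at E11.5 (553 to 641) and 453 CPM at E10.5 (428 to 479). Sinusoidal endothelial-like cells had 393 CPM (354 to 435) and 169.95 CPM (145 to 198), and other endothelial-like cells had 309.7 CPM (291 to 329.5) and 177 CPM (164 to 191). The 3 intervals were separate at E11.5, and those of the sinusoidal and other cells overlapped at E10.5. The counts do not tell the full receptor from its soluble form.

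Flt4 (chr11:49609263-49652739, plus strand), the VEGF-C receptor, ran the other way among the endothelial kinds. Sinusoidal endothelial-like cells had 132 CPM at E11.5 (110.1 to 158) and 73.3 CPM at E10.5 (57.0 to 92.8), and other endothelial-like cells had 90.3 CPM (80.2 to 101) and 80.0 CPM (71.3 to 89.4). Arterial endothelial-like cells were lowest of the 3 kinds at both stages, with 31.0 CPM (21.8 to 42.7) and 45.2 CPM (37.5 to 53.9). Of these 3 kinds, the one with the highest Vegfc thus had the lowest Flt4.

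Tek (chr4:94739289-94874976, plus strand), the angiopoietin receptor, had 348 CPM at E11.5 (316 to 384) and 272 CPM at E10.5 (253 to 292) in arterial endothelial-like cells. Other endothelial-like cells had 113 CPM (101 to 125) and 87.3 CPM, and sinusoidal endothelial-like cells had 103 CPM (83.7 to 126) and 112 CPM (91.2 to 135). Tie1 (chr4:118471191-118490061, minus strand), its partner, had 439.7 CPM (403 to 479) and 405 CPM (382 to 429.7) in arterial endothelial-like cells. It had 199.999 CPM (185 to 216) and 109 CPM (99.1 to 120) in other endothelial-like cells, and 75.3 CPM (58.7 to 95.2) and 114 CPM (93.1 to 137) in sinusoidal endothelial-like cells. For both receptors the arterial interval lay clear of the other kinds at each stage.

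**Figure D3:**
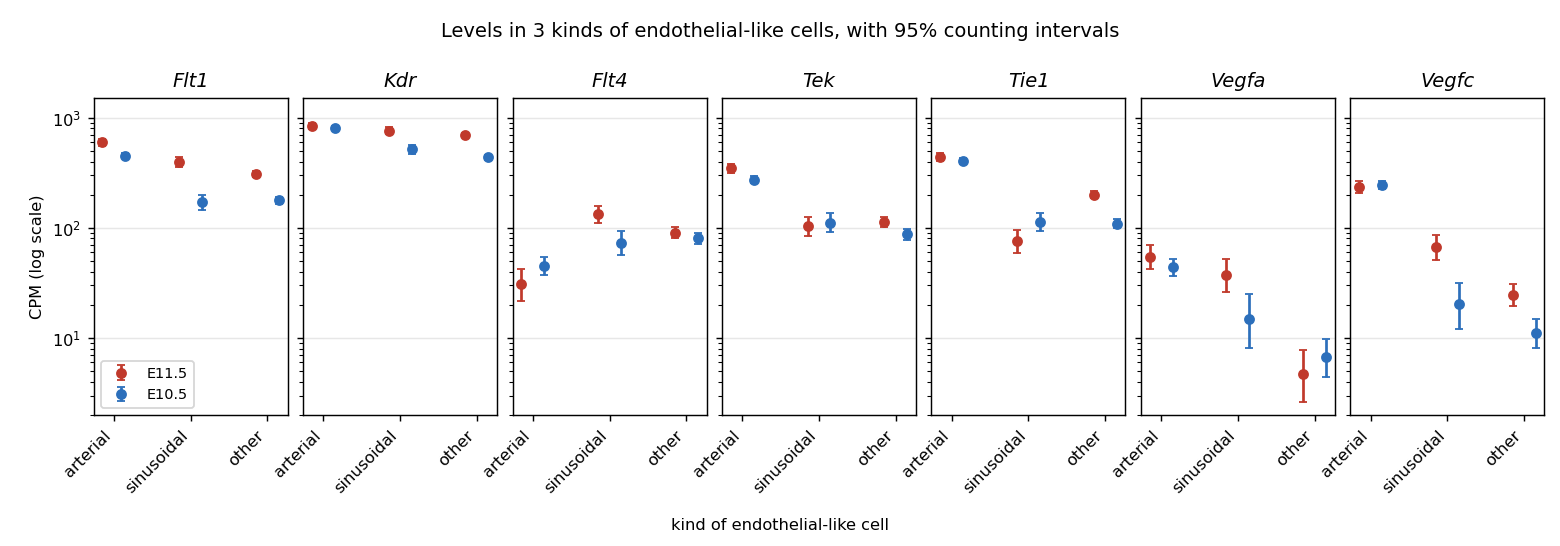
Level of the 5 receptors and of Vegfa and Vegfc in CPM (log axis) in arterial, sinusoidal and other endothelial-like cells, with E11.5 in red to the left of E10.5 in blue, 1 library per stage, and bars for 95% counting intervals. Arterial cells lie highest for Tek, Tie1 and Vegfc and lowest for Flt4.

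The cells of the arterial class were not uniform at E10.5. Cluster V1 (121 cells) had 379 CPM of Tek (351 to 409), against 76.1 CPM (59.6 to 95.7) in cluster V5 (31 cells). Vegfa stood at 56.7 CPM in V1 and 19.8 CPM in V5, whereas Kdr stood at 805 and 806 CPM and Flt1 at 456 and 447 CPM. Within the arterial class of E10.5, Tek and Vegfa thus differed between clusters several-fold where Kdr and Flt1 did not. The smooth muscle markers differed too, summing to 541 CPM in V1 and 76.1 CPM in V5 at E10.5. Median UMIs per cell over both stages were 12597 in V1 and 31685 in V5. The part of these differences in the result was not tested. At E11.5 cluster V6 (41 cells) had 480.5 CPM of Tek (431 to 534) and 76.8 CPM of Vegfa.

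Set against the other endothelial kinds pooled, arterial endothelial-like cells had at least 2-fold more of 4 of the 7 genes with enough counts at E11.5 and of 6 of 9 at E10.5. Of all genes tested in the same way, 12.7% were at least 2-fold higher in arterial cells at E11.5 and 16.8% at E10.5. Vegfc had the widest gap, a log2 ratio of 2.81 at E11.5 (2.52 to 3.11, 235 against 33.5 CPM) and 3.85 at E10.5 (245 against 17 CPM). Vegfa, Tek and Tie1 also passed 2-fold at both stages, with log2 ratios at E11.5 of 2.20, 1.67 and 1.38. Flt1 differed by 0.91 at E11.5 and 1.48 at E10.5, and Kdr by 0.31 and 0.96. Angpt1 passed 2-fold at E10.5 with a log2 ratio of 1.44, on 30 against 22 UMIs.

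Flt4 was the 1 of 7 genes at least 2-fold lower in arterial cells at E11.5, with a log2 ratio of -1.64 (31.0 against 96.9 CPM), beside 8.79% of all genes tested. At E10.5 it stood at -0.66 (45.2 against 71.2 CPM), and 0 of 9 genes were at least 2-fold lower, beside 5.19% of all genes. The median of the 7 genes was 1.38 at E11.5, beside 0.13 for all genes, and that of the 9 genes was 1.48 at E10.5, beside 0.23. The pooled kinds included the 65 and 125 shallow cells, whose erythroid markers summed to 566 CPM at E11.5 and 314 CPM at E10.5, while in arterial, sinusoidal and other endothelial-like cells each erythroid marker was under 20 CPM. Without the shallow cells 4 genes at E11.5 and 6 at E10.5 were again at least 2-fold higher in arterial cells. Vegfc then stood at 2.79 and 4.24, and Angpt1 at E10.5 at 2.40. Taking the mean of each cell's CPM put Vegfa at E10.5 at 0.77, and keeping doublets put Angpt1 at E10.5 at 0.85, both under 2-fold.

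Sinusoidal endothelial-like cells were set against the other endothelial-like cells in the same way. At E11.5 Vegfa and Vegfc were higher past 2-fold, with log2 ratios of 3.01 and 1.44, and Tie1 lower with -1.41, which is 2 genes higher and 1 lower of 7. The shares of all genes were 4.33% higher and 11.8% lower. At E10.5 Vegfa alone passed, at 1.14 on 14 against 26 UMIs, beside 3.37% of all genes higher, and 0 of 7 were lower, beside 7.64%. The hepatoblast markers that reached 20 CPM in sinusoidal cells were 1 at E11.5 and 0 at E10.5.

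Outside the endothelium the receptors were rare, and Kdr less so than the rest. Endothelial-like cells had 214-fold more Flt4 than all other cells at E11.5 and 193-fold more at E10.5, 168-fold and 204-fold more Tie1, 142-fold and 122-fold more Flt1, and 139-fold and 140-fold more Tek, but 43.0-fold and 82.3-fold more Kdr. Vegfc was 9.12-fold and 9.79-fold higher. That made 6 of 9 genes at least 2-fold higher in endothelial-like cells at each stage, beside 12.7% of all genes at E11.5 and 10.48% at E10.5. Angpt1 and Angpt2 were at least 2-fold lower, Angpt1 with log2 ratios of -2.60 and -1.97 and Angpt2 with -2.28 and -1.39, beside 22.7% and 21.5% of all genes.

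The share of a gene's molecules that endothelial-like cells held showed the same order. They held 90.4% of Flt4 UMIs at E11.5 and 93.1% at E10.5, 88.1% and 93.4% of Tie1 UMIs, 86.2% and 89.5% of Flt1 UMIs, and 85.9% and 90.6% of Tek UMIs. For Kdr they held 65.4% at E11.5 and 85.1% at E10.5. Cells outside the endothelium thus held a larger share of Kdr than of the other receptors at E11.5.

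**Figure D4:**
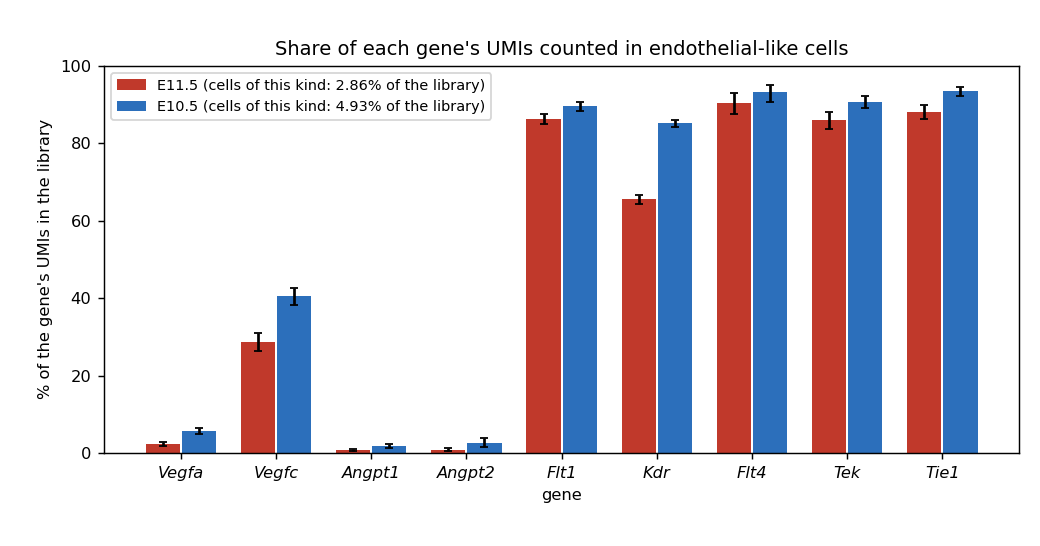
Share of each gene's UMIs in the analysed cells that lay in endothelial-like cells, in percent, with E11.5 left of E10.5 in each pair and 95% binomial intervals (Clopper-Pearson). Kdr has 65.4% at E11.5 and 85.1% at E10.5, and the other receptors have at least 85.9%.

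Detection in single cells followed the levels. After thinning to 5000 UMIs, Kdr was seen in 51 of 55 arterial endothelial-like cells at E11.5 (92.7%) and 138 of 146 at E10.5 (94.5%), and before thinning in 96.5% and 98.7%. The 5000 UMIs left out 2 of 57 and 6 of 152 of these cells. The background was 0.24% and 0.568% in thinned erythroid-like cells and 1.83% and 1.52% in thinned neural crest or glia-like cells. Thinned arterial endothelial-like cells had Flt1 in 89.1% and 83.6%, Tie1 in 89.1% and 80.1%, Tek in 81.8% and 70.5%, and Vegfc in 67.3% and 65.1%, but Flt4 in 9.09% and 15.1%. Before thinning these shares were 94.7% and 96.7% for Flt1, 96.5% and 95.4% for Tie1, 94.7% and 90.8% for Tek, 86.0% and 82.9% for Vegfc, and 38.6% and 43.4% for Flt4.

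Most arterial cells carried several receptors at once. At least 3 of the 5 receptors were seen in 53 of 55 thinned arterial cells at E11.5 (96.4%) and 128 of 146 at E10.5 (87.7%), and no thinned arterial cell lacked all 5. The same count was 66 of 95 other endothelial-like cells at E11.5 (69.5%) and 42 of 89 at E10.5 (47.2%), and 51.6% and 48.0% of sinusoidal cells. Kinds differed in which pair they held. Tek with Tie1 was seen in 72.7% and 58.9% of arterial cells, 6.45% and 8% of sinusoidal cells, and 20% and 15.7% of other cells. Kdr with Flt4 was seen in 9.09% and 15.1% of arterial cells, 41.9% and 24.0% of sinusoidal cells, and 31.6% and 25.8% of other cells.

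Between the stages, none of the 9 genes passed 2-fold in the pooled endothelial-like cells, in either direction, beside 3.66% of all genes at least 2-fold higher at E11.5 and 2.68% at least 2-fold lower. Flt1 had 378 CPM at E11.5 and 259 CPM at E10.5, a log2 ratio of 0.54 (0.45 to 0.63). Kdr had 719.9 and 545 CPM, a log2 ratio of 0.40 (0.34 to 0.46), and Flt4 had 82.6 and 62.5 CPM, also 0.40 (0.22 to 0.59). Tek and Tie1 differed by 0.13 and 0.16, and Vegfc by -0.27. The median of the 9 genes was 0.16, beside 0.04 for all genes. The mix of kinds differed as well, with arterial endothelial-like cells 57 of 257 at E11.5 and 152 of 395 at E10.5, and its part in the pooled ratios was not tested.

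By kind, the stages differed least in arterial endothelial-like cells. There 0 of the 8 genes with enough counts passed 2-fold, beside 3.64% of all genes higher and 4.88% lower. Flt1 had a log2 ratio of 0.39 (0.26 to 0.53), Tek 0.36 (0.18 to 0.53), Kdr 0.07, Tie1 0.12, Vegfc -0.06 and Flt4 -0.54 (-1.11 to 0.00). Those cells were mainly cluster V6 at E11.5 and cluster V1 at E10.5, as given above. The stage and a difference between these clusters cannot be told apart.

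In sinusoidal endothelial-like cells, which were the same cluster at both stages, 3 of 7 genes were at least 2-fold higher at E11.5, beside 7.94% of all genes. Vegfc had a log2 ratio of 1.73 (0.96 to 2.55), Vegfa 1.34 (0.41 to 2.35) and Flt1 1.21 (0.94 to 1.49), while Tie1 stood at -0.59 and Tek at -0.11. At least 2-fold lower were 0 of 7, beside 3.0% of all genes. The summed sinusoidal markers of these cells, such as scavenger receptors, moved with the stage too, at 3778 CPM at E11.5 and 1540.2 CPM at E10.5, and their part in the result was not tested. In the other endothelial-like cells 2 of 8 genes passed, beside 8.98% of all genes, namely Vegfc at 1.14 (0.59 to 1.72) and Angpt2 at 1.27 on 18 against 9 UMIs. None of the 8 was at least 2-fold lower, beside 2.70% of all genes. Flt1, Tie1 and Kdr stood at 0.80, 0.87 and 0.66.

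Smooth muscle or mural-like cells had wide stage differences for 2 of 6 genes, beside 7.65% of all genes higher. Angpt2 had a log2 ratio of 2.15 (1.99 to 2.31) and Flt1 of 2.31 (1.95 to 2.68), with Flt1 at 49.9 CPM at E11.5 (43.5 to 57.0) and 10.1 CPM at E10.5 (8.12 to 12.4). Flt1 was seen in 14.0% and 3.42% of thinned mural-like cells (30.8% and 9.97% before thinning). The 15 endothelial markers summed to 112 CPM at E11.5 and 86.6 CPM at E10.5 in these cells, with Robo4 at 0. The smooth muscle markers, of which 10 and 7 of 10 reached 20 CPM, summed to 16771 and 10289 CPM. The class was mostly cluster 23 at E11.5 (270 of 276 cells) and cluster 10 at E10.5 (571 of 572 cells), and the part of these marker levels in the result was not tested.

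Angpt1 was lower at E11.5 in the classes that led at E10.5, and Kdr was higher in several of them. Past 2-fold were 0 genes higher and 1 lower of 5 in stellate-like cells, 2 higher (Kdr and Flt4) and 3 lower (Angpt1, Angpt2 and Vegfc) of 7 in visceral mesenchyme-like cells, 1 higher and 2 lower of 6 in mesothelium-like cells, 2 higher and 2 lower of 5 in gonadal or adrenal-like cells, and 2 higher and 0 lower of 5 in nephric-like cells. Flt4 in the visceral mesenchyme-like cells had a log2 ratio of 3.96 (2.18 to 6.36), on 18 against 3 UMIs. Angpt2 there had 1.66 against 5.56 CPM, under the 6.86 and 9.61 CPM of neural crest or glia-like cells. The Angpt1 log2 ratio was -2.72 in hepatic stellate-like cells (-3.49 to -2.01), -2.99 in visceral mesenchyme-like cells (-3.65 to -2.40), -1.88 in mesothelium-like cells (-2.24 to -1.53) and -4.58 in gonadal or adrenal-like cells (-5.51 to -3.78). The shares of all genes at least 2-fold lower at E11.5 were 4.37% in stellate-like, 4.78% in visceral, 4.19% in mesothelium-like, 6.31% in gonadal or adrenal-like and 3.58% in nephric-like cells. Thinned cells with Angpt1 made up 3.16% and 20.6% of the visceral mesenchyme and 5.96% and 17.2% of the mesothelium (5.58% and 38.7%, and 12.2% and 41.9%, before thinning). Paraxial mesenchyme-like cells, with 29.8 and 27.4 CPM, and nephric-like cells, with 21.8 and 26.9 CPM, had log2 ratios of 0.12 and -0.30. The stellate-like cells (cluster 20) and the visceral mesenchyme-like cells (cluster 6) were each the same cluster at both stages, whereas the mesothelium-like cells were mainly cluster 13 at E11.5 and cluster 16 at E10.5. The gonadal or adrenal-like cells were mainly clusters 15, 31 and 35 at E11.5 and cluster 18 at E10.5.

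For Kdr, the stages differed in some mesodermal classes outside the endothelium and not in others. The log2 ratio was 3.13 in gonadal or adrenal-like cells (2.60 to 3.71, 38.5 CPM at E11.5 against 4.39 CPM at E10.5), 1.58 in mesothelium-like cells (1.12 to 2.05), 1.07 in visceral mesenchyme-like cells and 5.22 in nephric-like cells (4.19 to 6.46). Paraxial mesenchyme-like cells were at -0.13 (12.5 against 13.7 CPM) and mural-like cells at 0.17. Neural crest or glia-like cells, used here as background, were at 1.54 themselves, although at low levels (8.04 against 2.77 CPM), which is near the mesothelium-like value and above the visceral one. The shares of all genes at least 2-fold higher were 14.2% in gonadal or adrenal-like, 10.3% in mesothelium-like, 7.59% in visceral and 11.7% in nephric-like cells. The nephric value rests on cluster 30, with 142 cells at E11.5 and 78.4 CPM (65.1 to 93.7), while cluster 14, present at both stages, had 2.84 and 1.03 CPM. In cluster 30 the 15 endothelial markers together summed to 36.3 CPM, less than Kdr alone, and Cldn5, Ecscr and Robo4 were at 0. Unnamed cluster 3, led by Igfbp3, Itga8 and Arhgap20 and found at E11.5 alone, had 39.5 CPM of Kdr, with endothelial markers at 72.2 CPM in sum. Thinned cells with Kdr were 12.7% and 0.595% of gonadal or adrenal-like cells, 20.5% and 0.311% of nephric-like cells and 15.5% of unnamed cluster 3, beside the neural crest or glia-like 1.83% and 1.52%. Before thinning the shares were 21.7% and 6.41% of gonadal or adrenal-like, 34.0% and 1.99% of nephric-like, 26.8% of unnamed cluster 3 and 13.8% and 5.73% of neural crest or glia-like cells.

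Vegfa stood higher at E11.5 in several mesenchymal classes and in nephric-like and gonadal or adrenal-like cells, though by less than 2-fold in most. Its log2 ratio was 0.78 in hepatic stellate-like cells (0.45 to 1.12), 0.81 in visceral mesenchyme-like, 0.61 in mural-like and 0.90 in nephric-like cells, and it passed 2-fold in gonadal or adrenal-like cells at 1.11. Paraxial mesenchyme-like cells were at 0.14 (-0.04 to 0.33) and hepatoblast-like cells at -0.18. Nephric cluster 30 had 97.2 CPM at E11.5, while cluster 14 had 28.4 CPM at E11.5 and 32.6 CPM at E10.5. Vegfc was lower at E11.5 in 4 of these classes, past 2-fold at -1.21 in visceral mesenchyme-like and -1.37 in gonadal or adrenal-like cells, and by less at -0.50 in hepatic stellate-like (-0.85 to -0.16) and -0.70 in mural-like cells (-1.29 to -0.15). The gonadal or adrenal-like levels of Vegfc were low, at 2.19 against 5.67 CPM, and neural crest or glia-like cells were at -0.98 themselves. In nephric-like cells Vegfc was higher, at 2.38, where cluster 30 held 142 cells at E11.5 and was absent at E10.5. In paraxial mesenchyme-like cells it was also higher, at 0.68 (0.38 to 0.96). Angpt2 had a log2 ratio of 2.56 in paraxial mesenchyme-like cells (2.15 to 2.98, 14.9 CPM at E11.5 against 2.53 CPM at E10.5), 1 of 6 genes past 2-fold higher and 0 lower, beside 14.4% and 3.54% of all genes. Those cells were mainly cluster 7 at E11.5 and clusters 1 and 8 at E10.5.

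**Figure D5:**
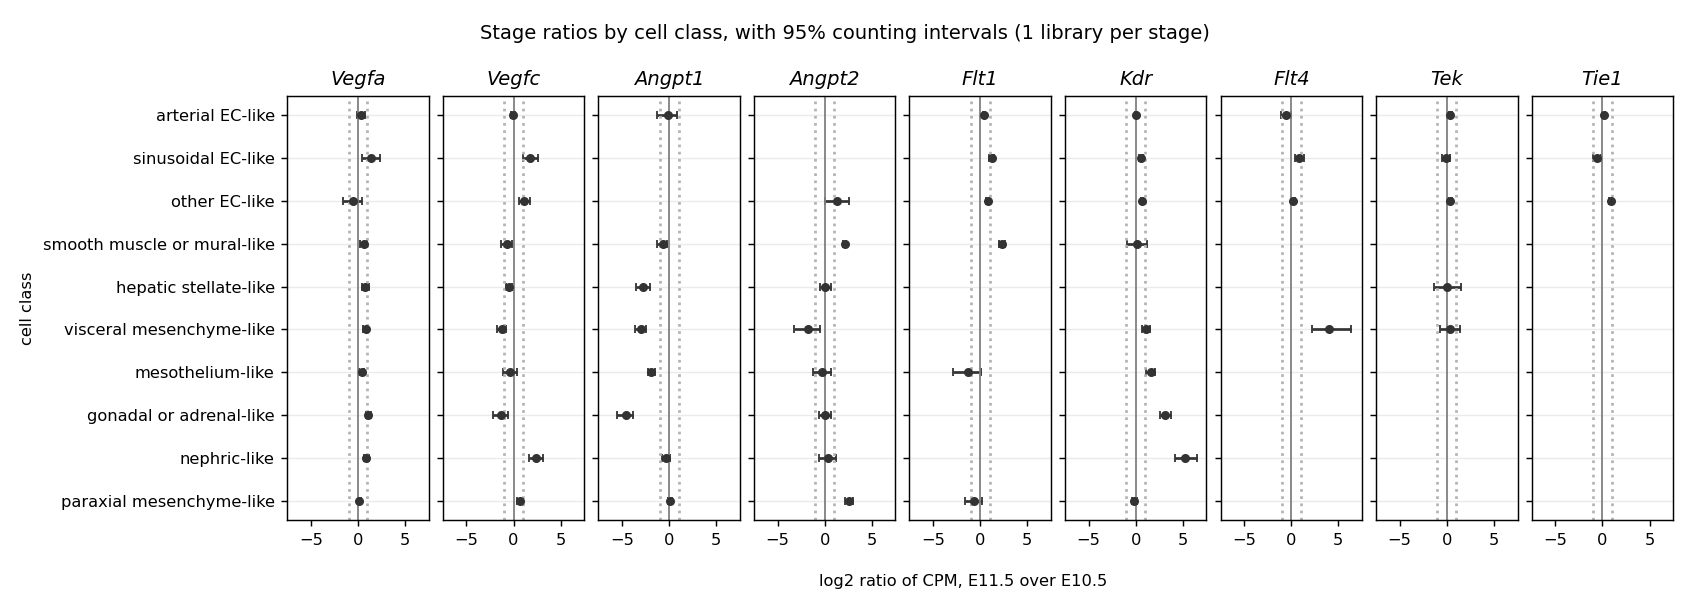
The log2 ratio of CPM, E11.5 over E10.5, of each gene (one panel each) in 10 cell classes with 95% counting intervals, 1 library per stage, drawn where at least 20 UMIs were counted in both stages together and at least 1 in each; dotted lines mark 2-fold. Angpt1 lies left of the lower line in stellate, visceral, mesothelial and gonadal classes, Kdr right of the upper line in the last 3 of these and in nephric cells, and Angpt2 and Flt1 right of it in mural cells.

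The remaining classes had few calls. Over all cells outside the endothelium, Kdr (16.7 CPM at E11.5 against 6.63 CPM at E10.5) and Angpt2 (16.8 against 7.73 CPM) were 2 of 9 genes past 2-fold higher and 0 were lower, beside 17.0% and 4.55% of all genes. The mix of these cells differed between the stages. Collagen-rich mesenchyme-like cells were 1266 at E11.5 against 1 at E10.5, unnamed cluster 3 was 900 against 0, and sclerotome-like cells were 10 against 845. The part of this mix in the pooled ratios was not tested. In erythroid-like cells Vegfa (280 against 10 UMIs) and Angpt1 (19 against 1) were 2 of 4 past 2-fold higher, beside 18.5%, and 0 were lower, beside 4.78%. In the erythroid cluster 17, the one found at both stages, Vegfa had 3.98 and 3.56 CPM.

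Neuron-like cells had 0 of 3 genes higher and 1 lower, Angpt1 at a log2 ratio of -2.81 on 7 against 52 UMIs, beside 10.8% and 6.88% of all genes. Neural crest or glia-like cells had 1 of 4 higher, Kdr at 1.54, and 0 lower, beside 6.45% and 3.53%. Hepatoblast-like cells had 0 of 2 past 2-fold in either direction, beside 8.34% and 4.44%. Unnamed cluster 0, of shallow cells, had 0 of 7 higher and 1 lower, Vegfc at -1.06, beside 4.75% and 4.72%. The shallow endothelial-like cells had 1 of 6 higher, Tek at 1.5 on 12 against 17 UMIs, and 3 lower, each with at most 3 UMIs at E11.5, beside 4.71% and 12.4%.

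Blood-lineage cells and haemogenic-like cells held some of the family as well. Megakaryocyte-like cells at E11.5 had, beside Angpt1, 62.8 CPM of Kdr (53.1 to 73.7), 34.6 CPM of Tie1 and 11.4 CPM of Tek, and 31.2% of them held Kdr and 17.5% Tie1 after thinning (47.4% and 40.5% before). Their 15 endothelial markers summed to 274 CPM. The haemogenic-like cells, a cluster led by Spi1 and Cd34 with 5 cells at E11.5 and 13 at E10.5, were too few for a stage ratio. They carried endothelial markers too, of which 15 of 15 at E11.5 and 14 of 15 at E10.5 reached 20 CPM. These summed to 2068 and 1495 CPM, so the receptors in haemogenic-like cells were not read as those of blood cells. At E10.5 the haemogenic-like cells had 156 CPM of Angpt1 (125 to 193, 85 UMIs), 88.1 CPM of Tie1, 49.5 CPM each of Kdr and Tek and 45.9 CPM of Flt1. Angpt1 was seen in 13 of 13 of these cells, and in 7 of 13 after thinning.

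Other genes of the pathway came from a list of 26, which held further ligands, co-receptors, VEGF-C processing genes, receptor effectors, and hypoxia sensors and targets. Of these, 25 were in the files and 22 reached 20 CPM in some class of at least 50 cells, with Angpt4, Ccbe1 and Adamts3 under it. Against the other endothelial kinds, arterial endothelial-like cells were at least 2-fold higher in 3 of 20 list genes at E11.5 and 5 of 21 at E10.5, and lower in 8 and 2. Of all genes tested, 12.7% at E11.5 and 16.8% at E10.5 were higher, and 8.79% and 5.19% were lower. The 8 were Nrp2, Adm, Bnip3, Pdk1, Ldha, Shb, Pgk1 and Vegfb, and the 2 were Nrp2 and Ldha. The median log2 ratio of the list was -0.44 at E11.5 and -0.17 at E10.5, below the medians of all genes given above.

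The co-receptors split by kind. Nrp1, the neuropilin that binds VEGF-A with KDR, had 905 CPM at E11.5 and 911 CPM at E10.5 in arterial cells, with log2 ratios of 1.98 and 2.90 over the other kinds. Nrp2, the neuropilin that binds VEGF-C with FLT4, had 3.35 and 25.7 CPM in arterial cells, against 314 and 208 CPM in the class named other endothelial-like. Its log2 ratios over all the other endothelial kinds pooled were -6.29 and -2.70. Nrp2 was thus low in the same kind as Flt4. Ptprb, the phosphatase that acts on TEK, had 632 and 299.7 CPM in arterial cells, with log2 ratios of 2.48 and 2.74, and Epas1, a hypoxia-inducible factor known from endothelium, 279 and 183 CPM with 2.18 and 3.22.

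Among the hypoxia genes, Slc2a1, a glucose transporter, had 139.9 CPM at E11.5 and 426 CPM at E10.5 in arterial cells, a log2 ratio of -1.61 between the stages. Bnip3, a mitochondrial hypoxia target, was also lower there, at -1.72, as was Nrp2 at -2.94. Ptprb at 1.08 and Ndrg1, another hypoxia target, at 1.96 were higher, which makes 2 of 20 list genes higher and 3 lower, beside 3.64% and 4.88% of all genes. In endothelial-like cells pooled, 2 of 21 were at least 2-fold higher at E11.5, Adm, the vessel-dilating peptide, at 1.03 and Ndrg1 at 2.03, and 0 lower, beside 3.66% and 2.68% of all genes. In hepatic stellate-like cells, which led for Vegfa, 3 of 19 were higher and 0 lower, with Adm at 2.68 (92.0 against 14.3 CPM), Egln3, an oxygen sensor, at 2.56 and Pdk1 at 1.31, beside 5.50% of all genes higher. In mural-like cells 2 of 22 were higher, namely Ptprb at 1.05 and Vegfd, a further FLT4 ligand, at 4.14 (19.6 against 1.11 CPM), and Bnip3, Pdk1 and Nrp2 were lower, beside 7.65% of all genes higher and 6.26% lower.

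The remaining list genes had their highest levels in many different classes. Of the further ligands, Vegfb led in sclerotome-like cells at E10.5 (121 CPM), Pgf, a ligand of FLT1, in mural-like cells at E11.5 (39.3 CPM), and Vegfd in collagen-rich mesenchyme-like cells at E11.5 (30.9 CPM). The receptor effectors Plcg1 at E10.5 (72.7 CPM) and Foxo1 at E11.5 (74.5 CPM) led in arterial endothelial-like cells, and Shb in mesothelium-like cells at E11.5 (39.2 CPM). Hif1a, the hypoxia factor known to act on Vegfa, led in gonadal or adrenal-like cells (232 CPM) and the oxygen sensor Egln1 in hepatic stellate-like cells (167 CPM), both at E11.5. The glycolysis genes Pgk1 and Ldha led in hepatoblast-like (2031 CPM) and megakaryocyte-like cells (2773 CPM) at E11.5.

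The genes whose levels were most like each member's were ranked by Pearson correlation over 41 class-by-library profiles, which share their libraries and the few endothelial classes, so that the values are descriptions. Flt1 was most like Cd93, Adcy4 and Mmrn2 (0.96, 0.956 and 0.952), Kdr most like Adgrf5, Tie1 and Rasip1 (0.941, 0.923 and 0.919), and Flt4 most like Col15a1, Gimap4 and Bcl6b (0.968, 0.958 and 0.954). Tek was most like Tie1, Ccm2l and Scarf1 (0.982, 0.979 and 0.97), and Tie1 most like Ccm2l, Tek and Myct1 (0.987, 0.982 and 0.981). Mmrn2 and Rasip1 are also markers that named the endothelial classes. Between the 5 receptors the correlation ran from 0.86 to 0.982.

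The ligands had other companions. Vegfc was most like Mkl2, Ece1 and Unc5b (0.845, 0.824 and 0.821), and its correlation with Tek was 0.717. Unc5b is also a marker that named the arterial class. Angpt2 was most like Adamts2, Myocd and Cnn1 (0.852, 0.849 and 0.836), of which the last 2 are smooth muscle genes and also markers that named the mural class. Vegfa was most like Ghr, Smarca1 and Sumf2 (0.859, 0.744 and 0.740), and its correlations with the receptors ran from -0.194 to -0.050. The highest values for Angpt1 were lower, with 0.648 for Tab2, 0.646 for Unc119 and 0.613 for Meis1.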

How the data were processed

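Single-cell libraries were made with the 10x Chromium 3′ v3.1 kit, per the labels' protocols, and processed with Cell Ranger 5.0.0 against mm10 (GRCm38), per the submitters' processing notes. The deposited matrices hold UMI counts per gene and cell barcode, not normalized. The libraries held 12289 barcodes and 159619785 UMIs at E11.5, and 10996 barcodes and 151474708 UMIs at E10.5.

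Barcodes were kept from 1000 UMIs and 500 genes upward where mitochondrial UMIs did not exceed 10% (79.4% and 79.2% of barcodes). Scrublet's automatic threshold marked 0%, so the 8% of cells with the highest scores were removed in each library (780 and 696). Cells of both libraries were clustered together with scikit-learn 1.9.0 and leidenalg (2000 variable genes per library, 40 principal components, or 20 when endothelial and blood cells were clustered again, 15 neighbours, Leiden resolution 1.0). The 9 genes, the pathway list, haemoglobin, mitochondrial and sex-linked genes were left out. Of 51 clusters, 47 were named from 32 marker lists. A name needed at least 3 markers at 20 CPM or more and 3-fold over all other cells. In the first clustering 2-fold was used where no list had 3 such markers. An endothelial kind, such as arterial or sinusoidal, needed at least 3 markers at 20 CPM or more and 2-fold over the other endothelial cells clustered again.

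UMIs were summed per class and library and divided by all UMIs other than haemoglobin and mitochondrial ones (CPM). Intervals are exact Poisson, Clopper-Pearson or exact conditional at 95%. PCR copies are collapsed by UMIs. A stage ratio was computed in classes of at least 50 cells at each stage and, as an exception, in sinusoidal cells (31 and 25). A ratio needed 20 UMIs of the gene in both groups together. Cells are not replicates, so no p-value is given. The ratio and interval code was tested on simulated data. Gene positions are from GENCODE M21 (GRCm38). The text names all 9 genes, list genes that reach 20 CPM, and for each of the 9 the 3 most alike genes (log2(CPM + 10), genes at 50 CPM or more in 1 profile). The genes, lists and markers were chosen with earlier results of these data known. Alternatives are given in the closing section. Versions were Python 3.11.15, numpy 2.4.6, scipy 1.17.1, pandas 2.3.3, leidenalg 0.10.2 and matplotlib 3.10.9.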

Additional observations from a re-analysis of the deposited data

Results flagged for a closer look

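The ligands Vegfc and Angpt2 had stage ratios past 2-fold in opposite directions in different cell classes, with 1 library per stage, and the difference between the classes was not tested. Vegfc had a log2 ratio (E11.5 over E10.5) of 2.38 in nephric-like, 1.14 in other endothelial-like and 1.73 in sinusoidal endothelial-like cells, against -1.37 in gonadal or adrenal-like cells, -1.06 in unnamed cluster 0 and -1.21 in visceral mesenchyme-like cells. Angpt2 had 1.27 in other endothelial-like, 2.56 in paraxial mesenchyme-like and 2.15 in smooth muscle or mural-like cells, against -1.74 in visceral mesenchyme-like cells. Some of these levels were low on either side. Angpt2 had 1.66 against 5.56 CPM in visceral mesenchyme-like cells and 5.61 against 2.33 CPM in other endothelial-like cells. Neural crest or glia-like cells, the background, had 6.86 and 9.61 CPM. Vegfc had 2.19 against 5.67 CPM in gonadal or adrenal-like cells, and its ratio in neural crest or glia-like cells was -0.98 (-2.38 to 0.28). Nephric-like, gonadal or adrenal-like, other endothelial-like, paraxial mesenchyme-like and mural-like cells were mainly different clusters at the stages. In these classes stage and cluster cannot be told apart. Unnamed cluster 0 was led by AY036118 and Gm42418 and had medians of 1601 and 1693 UMIs per cell.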

How the results depend on the processing

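No paired analysis was possible because each stage had 1 library, and leaving out a replicate was not possible for the same reason. Of 69 counts of genes under 13 alternatives, 66 stayed within 1.5 times the value reported and 3 did not. Of single ratios, 27 of 115 stage ratios and 39 of 166 arterial ratios left the counting interval of the value reported. With at most 5% mitochondrial UMIs, 1 gene was at least 2-fold higher (Angpt2, log2 ratio 1.10) and 1 at least 2-fold lower (Angpt1, -2.20) at E11.5 in endothelial-like cells, where 0 and 0 are reported. With doublets kept, 1 gene was at least 2-fold higher (Angpt2, 1.05). That mitochondrial limit left 189 endothelial-like cells at E11.5 and 257 at E10.5, and only 19 arterial ones at E11.5, under the 20 needed for an alternative, so it gave no arterial value for E11.5. At E10.5 it left 28 of 152 arterial cells, which gave the Angpt1 value of 4.17 and the Kdr value of 0.70 below. Median mitochondrial shares were 5.3% and 5.86% in arterial cells, against 3.9% and 3.93% in endothelial-like cells pooled. Over all alternatives the pooled stage log2 ratio of Flt1 ranged over 0.15 to 0.84, of Kdr 0.13 to 0.59 and of Flt4 0.10 to 0.63, while those of Vegfa (-0.38 to 0.47), Vegfc (-0.81 to 0.38), Angpt1 (-2.20 to 0.77), Angpt2 (-0.75 to 1.10), Tek (-0.20 to 0.22) and Tie1 (-0.18 to 0.46) changed sign. Every arterial ratio kept its sign except Angpt2 at E10.5 (-1.08 to 2.62), but Vegfa (0.77 to 2.52), Angpt1 (0.85 to 4.17) and Kdr (0.70 to 1.68) at E10.5 and Flt1 at E11.5 (0.86 to 1.45) lay on both sides of 2-fold. Leaving out the shallow endothelial-like cells, chosen after seeing the data, left 192 and 270 cells, gave Flt1 a ratio of 0.49 and Flt4 0.34, and moved no count past 1.5 times. Depth limits rare genes: a class with 0 UMIs of a gene is bounded at 3 counts. Stage, library and the pool of embryos cannot be told apart.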
